A study of Medicago truncatula with 6 samples.

Results

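Of 50897 M. truncatula genes listed in the count files, 56 peaked in root hairs after a 4 h treatment with Nod factors (NF) and were lower again after 20 h. A gene was taken into the group if its lower NF 4 h library held at least 2 CPM (read pairs of the gene per 1000000 pairs counted in its library), at least 1.5 times the CPM of the water library and at least 1.5 times the CPM of the higher NF 20 h library. These thresholds were met by 59 genes, of which 3 were left out because the study tabulates them with its nutrient transport or reactive oxygen genes, namely the peroxidase Medtr1g066380, the nitrate transporter Medtr4g057890 and the peptide transporter Medtr7g098200. The group was therefore chosen on the values of all 5 libraries, so every level and ratio of these genes given here is a description. Test calls on them are given only as counts over the group, beside the share of all genes called where it was computed, and support nothing.

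The root hairs came from 5-day-old seedlings of the wild type A17, which were all grown in vitro on Fahraeus medium. The control treatment was pure water, the NF 4 h treatment was a 10 nM NF solution applied for 4 h, and the NF 20 h treatment was the same solution applied for 20 h. Each library was made from the pooled root hairs of 100 plants, so differences between plants are averaged within a library. Both NF treatments had 2 libraries (replicates 1 and 2) and the control treatment had 1 (replicate 2), while control replicate 1 was not analysed here. The water library, whose label carries 4 h, is the single reference of both NF treatments and has no measure of its own spread. All root hairs were harvested at the same hour of the light period per the study's methods, so the 4 h and 20 h treatments were started at different times of day, and duration of NF treatment and time of day of its start cannot be told apart.

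Nod factors are lipochitooligosaccharides that rhizobia release and that legume root hairs perceive through receptor kinases with extracellular LysM domains. Perception sets off calcium oscillations in the nucleus, transcription of early nodulin genes, and changes in the growth of the root hair tip. Some of these transcripts accumulate only briefly, while others stay high as infection proceeds.

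The study's RT-qPCR primer table holds 2 of the 56 genes, and their primers, written 5′ to 3′ in lower case, are shown because they identify these transcripts by sequence. The gene Medtr5g045470 is annotated as an inhibitor of trypsin and hageman factor, and Medtr6g022560 as a putative transmembrane protein.
Medtr5g045470 forward: tcaatggagaagcagcag
Medtr5g045470 reverse: acacgaactctgtcacac
Medtr6g022560 forward: gtatctggcgacaacgaagaatg
Medtr6g022560 reverse: aggagatgttcaacagtcacaaac

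The 5 libraries held between 39199411 and 47302574 counted pairs, and a count of 3 pairs, used here as the detection floor, corresponded to 0.0634 to 0.0765 CPM. Root hair identity was checked with 11 orthologs of Arabidopsis root hair genes, of which 10 were at 1 CPM or more. Their summed level was 4251 to 6394 CPM, and it was higher in the NF libraries numbered 2 (6005 and 6394 CPM) than in those numbered 1 (4251 and 4414 CPM). Most of the sum came from 1 gene, Medtr1g088110. It had 3143 CPM in water, 2630 and 3917 CPM at NF 4 h, and 2768 and 4145 CPM at NF 20 h. None of the 10 tested genes of this list was called in a comparison by the edgeR test described below. In the endodermis list of 8 Casparian strip genes the summed level was 551 to 660 CPM, with 1 gene called higher at NF 4 h and 2 at NF 20 h. The 1 photosynthesis gene of the green tissue list read 3.20 CPM in water, 12.8 and 7.22 CPM at NF 4 h, and 6.51 and 5.41 CPM at NF 20 h. None of the 56 genes is in these lists, and the part of other cell types in their levels was not tested. In such bulk samples, fewer cells of a type and less RNA per cell cannot be told apart.

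Across the 56 genes, the water level ran from 0 to 394 CPM with a median of 2.85, the NF 4 h mean from 2.10 to 1083 CPM with a median of 9.87, and the NF 20 h mean from 0.172 to 599 CPM with a median of 3.96. The ratio of the lower NF 4 h library to the larger of the water library and the higher NF 20 h library, called the peak ratio here, was 1.51 to 3.65 with a median of 1.73. It was set by the higher NF 20 h library in 40 genes and by the water library in 16. The NF 4 h mean was 1.64 to 18.2 times the NF 20 h mean, with a median of 2.37, and 30 genes were at least 2-fold higher at 4 h than at 20 h within both replicate numbers. All 56 passed the filter on low counts.

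**Figure D1:**
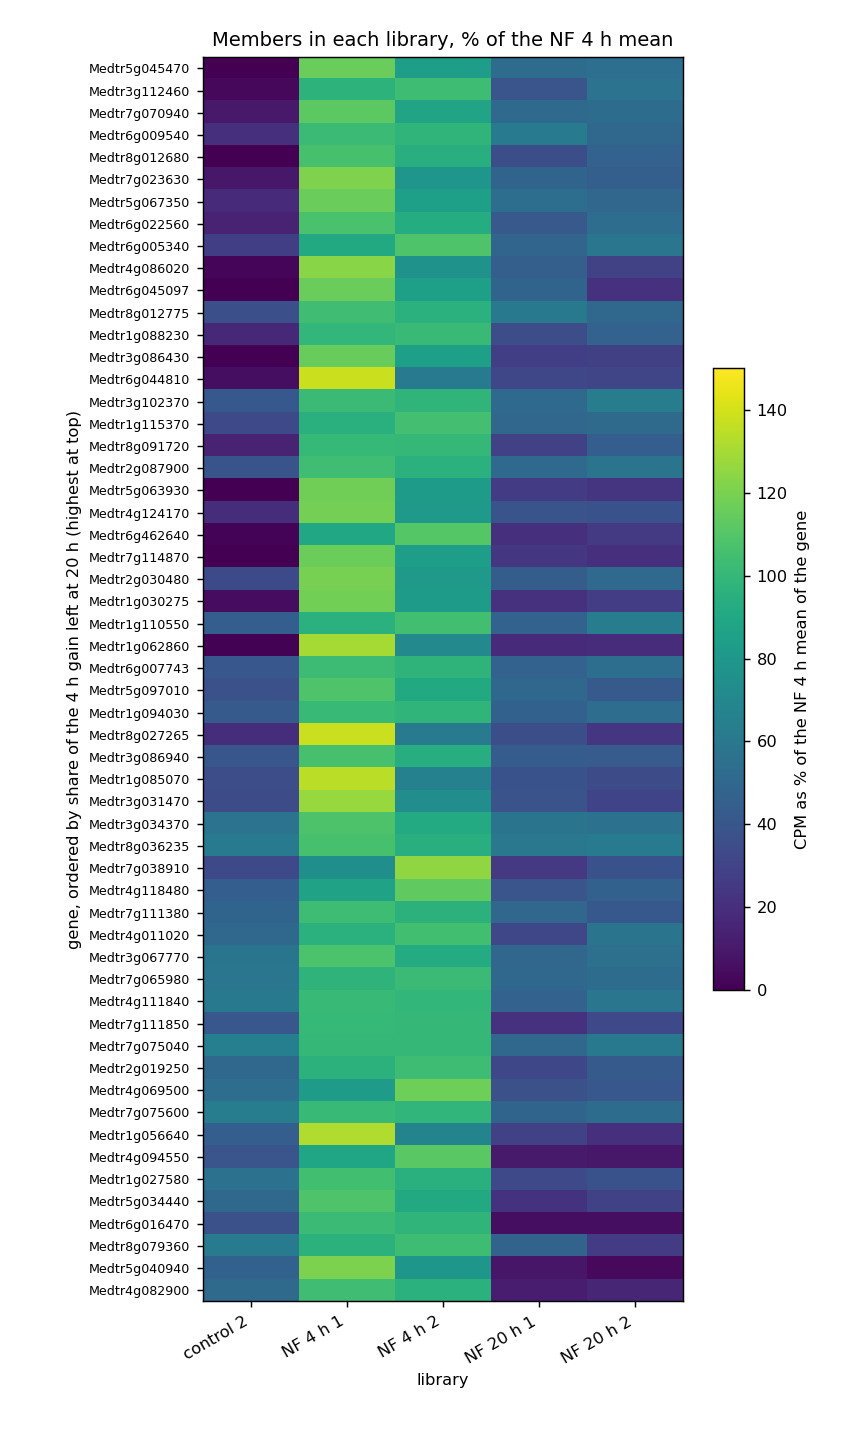
CPM of the 56 genes in the 5 libraries, as a percentage of the NF 4 h mean of each gene (colour), with genes in rows ordered by the share of the 4 h gain left at 20 h. The 32 genes with both NF 20 h libraries above water lie towards the top, and the 16 genes with both NF 20 h libraries below water lie towards the bottom, where the NF 20 h columns are darker than the water column.

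When the edgeR quasi-likelihood test was run over all 22091 genes that passed the filter, 20 of the 56 genes were called higher at NF 4 h than in water, against 0.525% of all tested genes. In the comparison of NF 20 h with NF 4 h, 2 of the 56 were called lower, against 0.0136% of all tested genes. At NF 20 h, 7 were called higher than water, against 1.1%, and 2 were called lower, against 0.371%. These counts moved when 1 NF library was left out, in both directions for the comparison of NF 20 h with NF 4 h. Such a fit leaves 1 library in that treatment, so its counts are not given. Other settings moved the genes called lower at NF 20 h than at NF 4 h further, to 27 without the filter (0.386% of genes tested) and 47 with DESeq2 (1.85%). DESeq2 called 37 higher than water at NF 4 h (2.05%) and 20 at NF 20 h (2.6%). The same libraries chose the genes, so nothing is read from these counts. Of the 56, 36 were not called higher at NF 4 h, and calls are rare over all genes. Where no other gene of an annotation was called, below, that does not set those genes apart from the members.

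The genes nearest the thresholds show where the group ends. Just inside the 1.5-fold limit were Medtr1g056640, an O-glycosyl hydrolase of family 17, with a peak ratio of 1.51, Medtr1g110550, a putative transmembrane protein, with 1.52, and the unannotated Medtr8g036235, with 1.52. Just outside were Medtr1g112940, a protein phosphatase 2A regulatory subunit, with 1.49, Medtr4g025830, a SAUR-like gene of the auxin-responsive family, with 1.49, and the unannotated Medtr4g103650, with 1.49. Medtr1g056640 had 39.8 and 20.5 CPM at NF 4 h, 13.6 CPM in water, and 9.01 and 6.15 CPM at NF 20 h, so its NF 4 h replicates lay far apart. At the level limit, the WNK kinase Medtr8g027265 with 2.02 CPM in its lower NF 4 h library was just inside, and the coatomer subunit gene Medtr2g102267 with 1.98 CPM just outside.

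The largest peak ratios belonged to genes that were nearly silent in water. Medtr1g062860, a eukaryotic-type carbonic anhydrase, an enzyme that interconverts carbon dioxide and bicarbonate, had 0.0439 CPM in water, 5.97 and 3.24 CPM at NF 4 h, and 0.834 and 0.888 CPM at NF 20 h. Its NF 4 h libraries thus lay above both NF 20 h libraries, which in turn lay above water. The water value rests on 2 pairs, which gives an NF 4 h to water ratio of 107 with an exact 95% counting interval of 29.3 to 883.

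Medtr6g462640, a cytochrome P450 of family 71, had 0.0439 CPM in water, 2.81 and 3.47 CPM at NF 4 h, and 0.643 and 0.803 CPM at NF 20 h. Enzymes of this family oxidise small molecules, often in secondary metabolism. The ratio to the 2 water pairs was 71.2 with an interval of 19.5 to 591, and 21.9% of the gain was left at 20 h.

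Medtr7g114870, which encodes a protein with an IQ calmodulin-binding motif, had 0.0439 CPM in water, 10.3 and 7.40 CPM at NF 4 h, and 2.12 and 1.80 CPM at NF 20 h. IQ motifs bind calmodulin, the calcium sensor protein, so the product belongs to the calcium signalling list. The ratio to the 2 water pairs was 204, with an interval of 56.1 to 1684.

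Medtr3g086430, an ABC protein of the multidrug resistance-associated type, which pumps conjugated compounds across membranes, had 0.0219 CPM in water, 11.2 and 8.21 CPM at NF 4 h, and 2.72 and 2.75 CPM at NF 20 h. The NF 20 h libraries almost coincided. The water value was 1 pair, and the ratio of 446 has an interval of 79.8 to 17625.

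The unannotated Medtr5g063930 had 0 pairs in water, 4.08 and 2.86 CPM at NF 4 h, and 0.929 and 0.803 CPM at NF 20 h, so it was at least 52.7-fold higher at NF 4 h, taking the floor of 3 pairs for the water library. A second unannotated gene, Medtr8g012680, also had 0 pairs in water, with 9.94 and 8.80 CPM at NF 4 h and 3.36 and 4.44 CPM at NF 20 h, and was at least 142-fold higher against the same floor. In both genes the NF 20 h libraries lay between water and NF 4 h.

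MtENOD8.1 (Medtr1g030275), an early nodulin of the GDSL lipase/acylhydrolase family, had 0.219 CPM in water, 4.98 and 3.47 CPM at NF 4 h, and 0.905 and 1.16 CPM at NF 20 h. It was 19.3-fold higher at NF 4 h than in water and kept 20.3% of that gain at 20 h. Of the other 27 tested genes annotated as GDSL-like, 0 were called higher at NF 4 h by edgeR and 1 at NF 20 h, and their fitted log2 ratios to water at NF 4 h ran from -1.24 to 1.41.

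**Figure D2:**
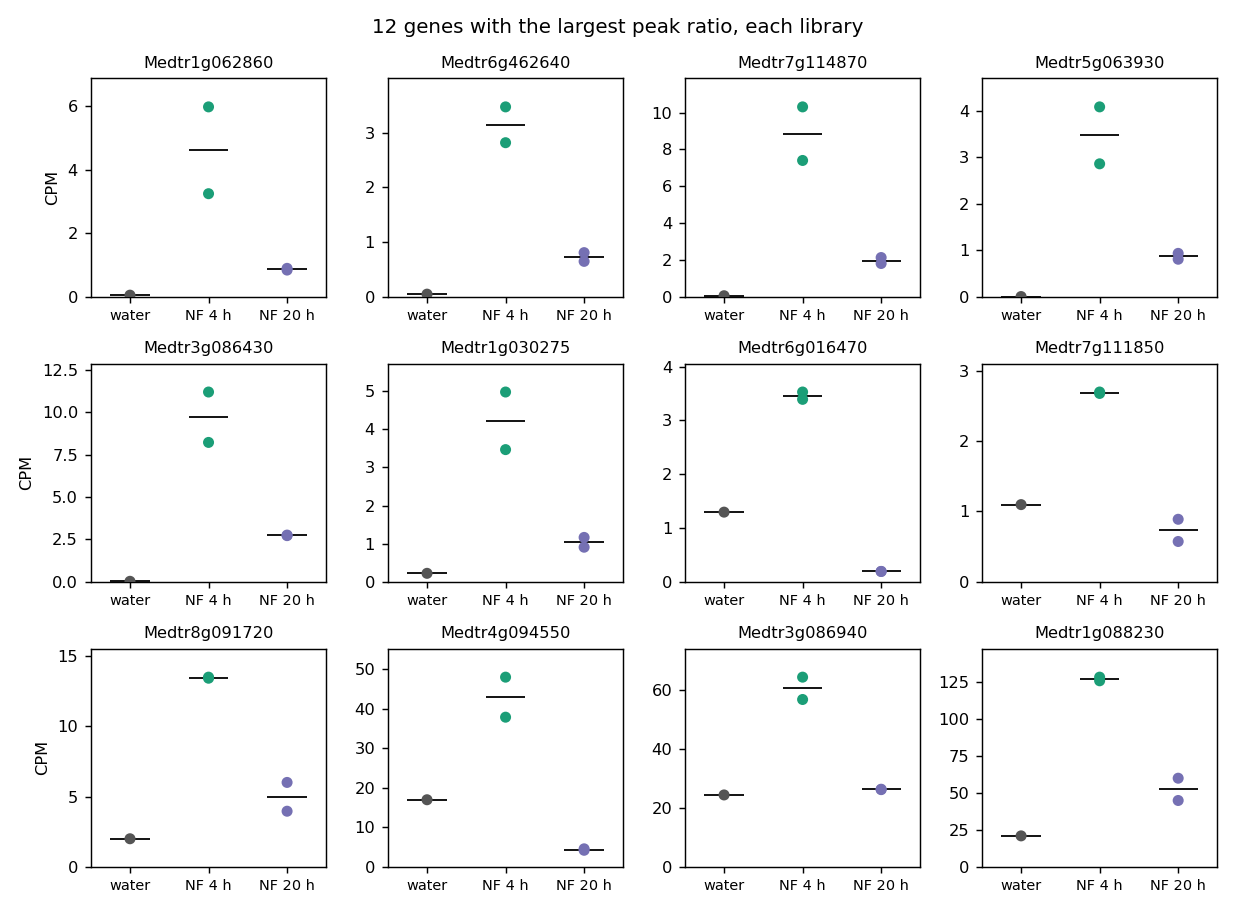
CPM of the 12 genes with the largest peak ratio, on a linear axis from 0, in water (1 library) and at NF 4 h and NF 20 h (2 libraries each); points are libraries and bars are group means. In Medtr6g016470, Medtr7g111850 and Medtr4g094550 the NF 20 h points lie under the water point, and in the other 9 genes they lie above it.

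Among the regulators, MtNF-YB7 (Medtr8g091720), a subunit of the CCAAT-binding nuclear factor Y, had 2.00 CPM in water, 13.5 and 13.4 CPM at NF 4 h, and 3.96 and 6.0 CPM at NF 20 h. The NF 4 h libraries were almost equal and 6.74 times the water level, and 26% of the gain was left at 20 h. The other 4 tested nuclear factor Y genes had log2 ratios of NF 4 h to water between 0.01 and 1.05, and none was called. The highest of these ratios belonged to Medtr7g113680, with 39.1 CPM in water and 88.6 and 72.7 CPM at NF 4 h. At NF 20 h this gene had 65.2 and 67.0 CPM.

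Medtr5g067350, an auxin response factor, one of the DNA-binding proteins through which auxin acts on transcription, had 4.39 CPM in water, 27.6 and 20.2 CPM at NF 4 h, and 13.0 and 11.8 CPM at NF 20 h. Its NF 20 h libraries lay between water and NF 4 h, with 41.1% of the gain left. The other 6 tested genes of this annotation had log2 ratios of NF 4 h to water between -0.15 and 1.62, and none of them was called. In the transcription factor list as a whole, which like the lists below includes the members, 7 of 256 tested genes were called higher and 0 lower at NF 4 h, and 13 were called higher and 1 lower at NF 20 h.

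The group holds 3 kinases. Medtr3g086940, annotated as SAPK1-like after kinases that respond to osmotic stress and abscisic acid in rice, had 24.4 CPM in water, 64.3 and 56.7 CPM at NF 4 h, and 26.3 and 26.2 CPM at NF 20 h. It had returned to 5.17% of its gain, so that the 20 h libraries were nearly at the water level. Medtr3g067770, annotated as kinase 1B, had 8.58 CPM in water, 15.9 and 13.6 CPM at NF 4 h, and 7.32 and 8.20 CPM at NF 20 h, which places both NF 20 h libraries below water.

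Medtr8g027265, a WNK kinase, had 0.636 CPM in water, 4.50 and 2.02 CPM at NF 4 h, and 1.17 and 0.782 CPM at NF 20 h. Its NF 4 h replicates differed by 2.23-fold, the widest gap of the group. In the kinase list, 14 of 386 tested genes were called higher and 1 lower at NF 4 h.

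Calcium handling was represented by a second gene besides the IQ motif gene. Medtr6g016470, a calcium-transporting ATPase, an enzyme that pumps calcium out of the cytosol, had 1.29 CPM in water, 3.53 and 3.39 CPM at NF 4 h, and 0.191 and 0.190 CPM at NF 20 h. The NF 4 h mean was 18.2 times the NF 20 h mean, the widest fold between the times in the group, and the NF 20 h mean was 0.147 of the water level. The NF 20 h levels rest on 8 and 9 pairs. The other 4 tested calcium ATPase genes had log2 ratios to water of 0.01 to 0.27 at NF 4 h and 0.01 to 0.48 at NF 20 h, and none was called.

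Genes of nitrogen metabolism provided 2 members. Medtr4g086020, a ferredoxin-nitrite reductase, which reduces nitrite to ammonium in plastids, had 0.197 CPM in water, 10.1 and 6.30 CPM at NF 4 h, and 3.72 and 2.41 CPM at NF 20 h. It was 41.6-fold above a water level of 9 pairs at NF 4 h, and 35.8% of the gain was left at 20 h. Medtr3g102370, an isoaspartyl peptidase/L-asparaginase, which releases ammonium from asparagine, had 54.8 CPM in water, 135 and 130 CPM at NF 4 h, and 67.8 and 84.0 CPM at NF 20 h, so all NF libraries lay above water.

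Another gene of this list, the glutamine synthetase Medtr2g021255, had 3.49 CPM in water, 45.2 and 41.4 CPM at NF 4 h, and 32.2 and 23.0 CPM at NF 20 h. It was called at both NF times but is outside the group, as the NF 20 h libraries were too high for the 1.5-fold limit. Glutamine synthetase binds the ammonium that nitrite reductase forms. A second gene of that annotation, Medtr3g065250, was far more abundant, with 3041.5 CPM in water. It had 2618 and 2450 CPM at NF 4 h and 2525 and 2157 CPM at NF 20 h, so all its NF libraries lay below water. Of the 12 tested genes of the list, 2 were called higher and 0 lower at NF 4 h, with a median log2 ratio of 0.23 beside 0.05 over all annotated genes tested. The list includes both members and, through a matching word, the folylpolyglutamate synthase Medtr3g069160, an enzyme of folate metabolism.

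The list of protease inhibitors and defence proteins held 7 of the 56 genes, the most of any list. It holds 86 of the 5323 annotated genes tested. Medtr5g045470, the trypsin and hageman factor inhibitor whose primers are given above, had 0.132 CPM in water, 68.9 and 50.2 CPM at NF 4 h, and 31.6 and 32.7 CPM at NF 20 h. Its NF 4 h mean was 453 times the water level, with an interval of 209 to 1244 around the ratio of pooled pairs, and it kept 53.9% of the gain at 20 h, the highest share of the group. None of the other 5 tested genes of the same annotation was called.

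Medtr6g044810 and Medtr6g045097 are both Kunitz type trypsin inhibitors, a class of small seed and defence proteins that block serine proteases. Medtr6g044810 had 0.285 CPM in water, 7.10 and 3.21 CPM at NF 4 h, and 1.64 and 1.61 CPM at NF 20 h. Medtr6g045097 had 0 pairs in water, 5.19 and 3.80 CPM at NF 4 h, and 2.17 and 0.972 CPM at NF 20 h, so it was at least 68.3-fold higher at NF 4 h against the floor of 3 pairs. These genes lie 13 listed genes apart, and reads that matched more than 1 gene equally well were discarded in counting, so their levels are uncertain to the extent that they share sequence, which was not tested. The other 11 tested Kunitz genes reached NF 4 h means of 0.162 to 2930 CPM with log2 ratios to water of -0.11 to 0.52, and none was called at either time.

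Medtr8g012775, a gene related to the defensin PDF1.4, encodes a small antimicrobial protein and had the highest level per length in the group, with 936 FPKM (CPM per kilobase of transcript) at NF 4 h. It had 394 CPM in water, 1129 and 1037 CPM at NF 4 h, and 655 and 543 CPM at NF 20 h, so it was 2.75-fold above water at NF 4 h and kept 29.7% of the gain. Of the other 5 tested genes of this annotation, 2 had the same order of means at NF 4 h and NF 20 h and 3 the opposite order.

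Among the other defensin genes, Medtr8g012760 had 0.526 CPM in water, 2.47 and 2.30 CPM at NF 4 h, and 1.86 and 2.28 CPM at NF 20 h, and Medtr8g010320 had means of 0.902 CPM at NF 4 h and 0.275 CPM at NF 20 h. Medtr8g012795 had 6.87 CPM in water, 421 and 255 CPM at NF 4 h, and 676 and 564 CPM at NF 20 h, and Medtr8g012800 had 0.0658 CPM in water, 1.5 and 1.20 CPM at NF 4 h, and 4.77 and 4.04 CPM at NF 20 h. In both, the NF 20 h libraries lay above the NF 4 h libraries, and both were called higher than water at both NF times. Medtr8g012805 had a mean of 0.322 CPM at NF 4 h and 1.26 CPM at NF 20 h. The difference in time course between Medtr8g012775 and these genes was not tested, nor was how much sequence they share, which bears on the counts because multiply matching reads were discarded. The unannotated Medtr8g012680, described above, lies 12 listed genes from Medtr8g012775.

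The remaining defence members were 2 germin genes, of a family of secreted cupin proteins, and a polygalacturonase inhibitor. Medtr6g005340 had 10.8 CPM in water, 35.5 and 42.1 CPM at NF 4 h, and 19.1 and 22.7 CPM at NF 20 h. Medtr2g019250 had 5.11 CPM in water, 9.69 and 10.4 CPM at NF 4 h, and 3.29 and 4.29 CPM at NF 20 h, so that its NF 20 h libraries were below water and those of Medtr6g005340 above it.

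Medtr7g023630, the polygalacturonase inhibitor, which blocks pectin-degrading enzymes of fungi, had 1.07 CPM in water, 13.7 and 8.90 CPM at NF 4 h, and 5.43 and 5.12 CPM at NF 20 h. The other 4 tested genes of this annotation lay on the opposite side of water, with log2 ratios of -1.38 to -0.73 at NF 4 h and -2.57 to -1.55 at NF 20 h, and 1 of them was called lower at NF 20 h. Over the whole list of inhibitors and defence proteins, 6 of 86 tested genes were called higher and 1 lower at NF 4 h, with a median log2 ratio of 0.10 beside 0.05 over all annotated genes tested.

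**Figure D3:**
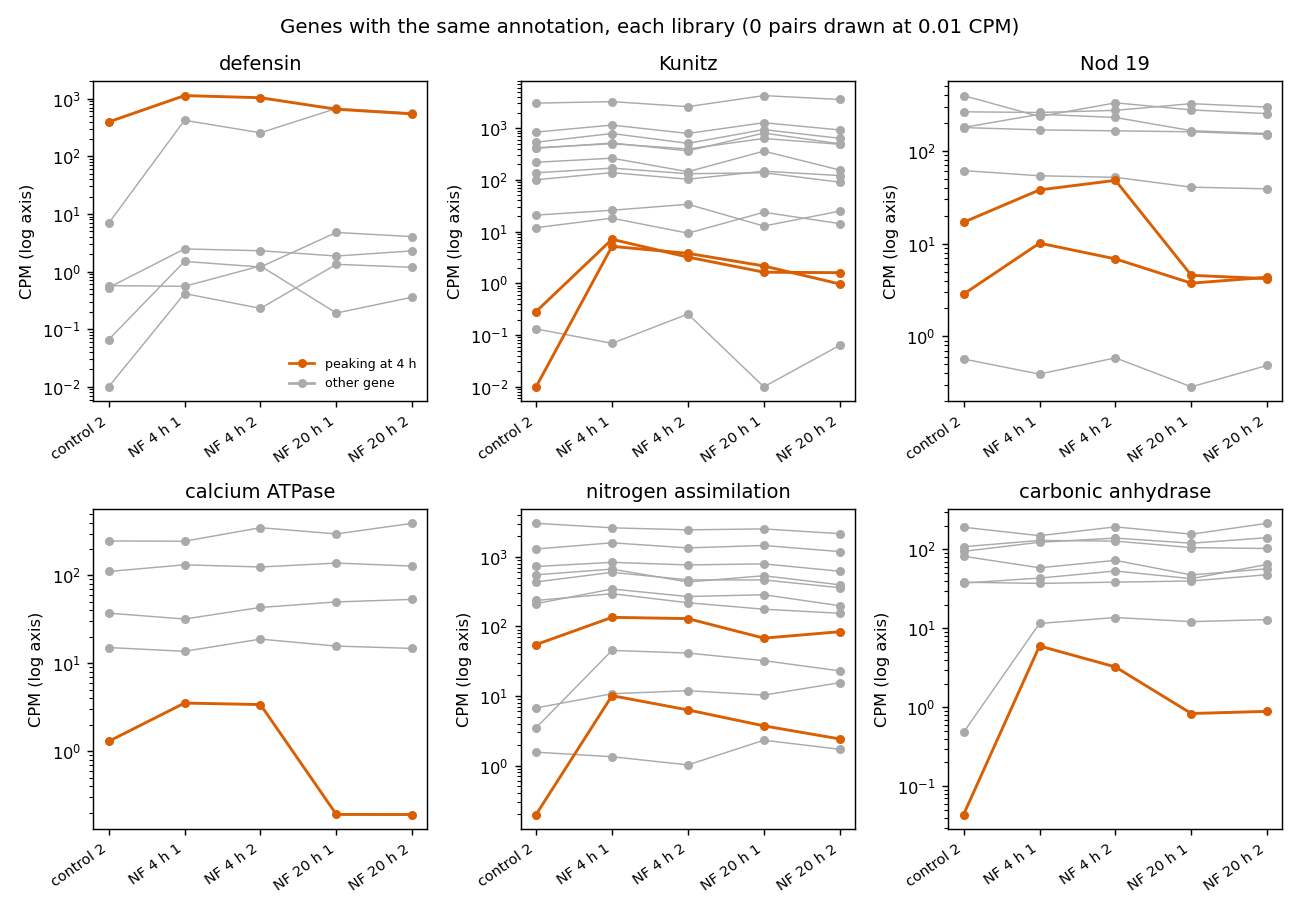
CPM (log axis) of genes that share an annotation with a gene of the group, in the 5 libraries, for 6 annotations; orange lines are genes peaking at 4 h and grey lines the others, and genes at 0 pairs are drawn at 0.01 CPM. The orange lines of the calcium ATPase Medtr6g016470 and of Medtr4g094550 lie below their water level at NF 20 h, while the grey lines of 3 defensin genes lie higher at NF 20 h than at NF 4 h.

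Stress and seed proteins gave 3 members. Medtr4g094550, annotated as a stress up-regulated Nod 19 protein, had 17.0 CPM in water, 37.9 and 48.0 CPM at NF 4 h, and 4.55 and 4.19 CPM at NF 20 h. Its NF 4 h mean was 9.83 times the NF 20 h mean, which was 0.257 of the water level. Listed near it, Medtr4g094560 had 178 CPM in water, 247 and 229 CPM at NF 4 h, and 165 and 153 CPM at NF 20 h, the same order over a narrower range, while Medtr4g094548 had 61.2 CPM in water and means of 52.8 CPM at NF 4 h and 39.7 CPM at NF 20 h. None of the 6 other tested Nod 19 genes was called, which as said above does not set them apart from the members.

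Medtr2g030480, the other Nod 19 member, had 2.85 CPM in water, 10.1 and 6.84 CPM at NF 4 h, and 3.74 and 4.33 CPM at NF 20 h, which unlike Medtr4g094550 leaves its NF 20 h libraries above water. Medtr1g088230, a late embryogenesis abundant protein, of a class that protects cells during water loss, had 20.9 CPM in water, 126 and 128 CPM at NF 4 h, and 44.8 and 59.9 CPM at NF 20 h. It was 6.07-fold above water at NF 4 h and kept 29.7% of the gain. In the stress and seed list, 3 of 114 tested genes were called higher and 0 lower at NF 4 h.

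In the cell wall list, 3 genes peaked at 4 h. Medtr7g065980, a laccase, an enzyme that oxidises phenolics of the wall, had 259 CPM in water, 430 and 449 CPM at NF 4 h, and 224 and 234 CPM at NF 20 h. Medtr1g085070, a pectin acetylesterase, which removes acetyl groups from pectin, had 2.39 CPM in water, 9.09 and 4.44 CPM at NF 4 h, and 2.57 and 2.37 CPM at NF 20 h. Medtr2g087900, a cellulose synthase H1-like gene, had 9.67 CPM in water, 25.7 and 23.6 CPM at NF 4 h, and 12.7 and 14.2 CPM at NF 20 h. At NF 20 h the laccase was below water in both libraries and the cellulose synthase-like gene above it, and in this list 4 of 111 tested genes were called higher at NF 4 h.

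Transporters outside the study's transport tables gave 4 members, the ABC protein described above among them. Medtr7g038910, an amino acid transporter, had 19.4 CPM in water, 44.0 and 73.4 CPM at NF 4 h, and 14.7 and 22.2 CPM at NF 20 h, with the NF 20 h libraries on either side of water. Medtr3g112460, a peptide transporter, had 0.0658 CPM in water, 2.03 and 2.17 CPM at NF 4 h, and 0.834 and 1.21 CPM at NF 20 h. The ratio to its 3 water pairs was 31.8 with an interval of 10.7 to 156.

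The next listed peptide transporter, Medtr3g112470, had 0.154 CPM in water, 10.4 and 7.14 CPM at NF 4 h, and 4.98 and 4.65 CPM at NF 20 h, and was called at both NF times. It was also higher at NF 4 h than at NF 20 h in both replicates but missed the 1.5-fold limit. Medtr4g069500, a polyol/monosaccharide transporter, had 5.53 CPM in water, 8.53 and 12 CPM at NF 4 h, and 3.84 and 4.21 CPM at NF 20 h, the latter both below water.

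Enzymes of secondary metabolism added 2 genes to the P450 named first. Medtr7g070940, a UDP-glucosyltransferase, which attaches glucose to small molecules, had 4.04 CPM in water, 44.0 and 34.3 CPM at NF 4 h, and 20.0 and 20.7 CPM at NF 20 h, and kept 46.4% of the gain. Medtr7g075600, a cytochrome P450, had 82.1 CPM in water, 132 and 128 CPM at NF 4 h, and 62.7 and 69.0 CPM at NF 20 h, so that both NF 20 h libraries were below water. In this list 9 of 232 tested genes were called higher and 1 lower at NF 4 h.

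None of the 56 genes came from the lists of disease resistance proteins, hormone metabolism and response, cytoskeleton and vesicles, or ubiquitin ligases. Of the 5323 annotated genes tested, 42 are in the group, so lists of this size would hold few of them. Nothing is read from the absence. The auxin response factor Medtr5g067350 was placed in the transcription factor list only. At NF 4 h these lists had 1 of 108, 4 of 96, 2 of 120 and 5 of 275 tested genes called higher, in that order. The annotations behind all lists were read from the study's tables, which include its NF-responsive genes, and 114 of the 116 genes called higher at NF 4 h carry one. Shares of called genes within the lists can therefore not be set against the 0.525% of all tested genes. Over the 5323 annotated genes, 114 were called higher and 12 lower at NF 4 h, and 234 higher and 66 lower at NF 20 h. At NF 20 h the kinase, cell wall, secondary metabolism, stress and defence lists had 26, 11, 20, 6 and 5 genes called higher. In that order 5, 6, 10, 2 and 4 were called lower. The lists without a member had 10, 10, 3 and 5 called higher and 3, 0, 1 and 0 lower, in the order above.

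Of the genes without a place in a list, the transmembrane protein Medtr6g022560, the second with primers, had 13.6 CPM in water, 95.8 and 83.4 CPM at NF 4 h, and 37.6 and 48.1 CPM at NF 20 h. It was 6.59-fold above water at NF 4 h and kept 38.5% of the gain. Per length it stood at 159 FPKM at NF 4 h, close to the laccase Medtr7g065980 at 165 and above the late embryogenesis abundant gene Medtr1g088230 at 131. Medtr4g111840, also a putative transmembrane protein, had 64.3 CPM in water, 107 and 105 CPM at NF 4 h, and 50.2 and 62.6 CPM at NF 20 h, the latter both below water. The low temperature and salt responsive gene Medtr7g111380, the glucose-1-phosphate adenylyltransferase Medtr5g097010, which makes the sugar donor of starch synthesis, the DUF966 gene Medtr1g115370 and the hypothetical gene Medtr4g124170 had NF 4 h means of 2.07, 2.69, 3.0 and 5.16 times water. The P-loop nucleoside triphosphate hydrolase gene Medtr6g009540 was 4.96-fold above water at NF 4 h.

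A further 14 genes had no annotation in the study's tables, with NF 4 h means of 2.25 to 40.1 CPM, Medtr5g063930 and Medtr8g012680 among them. The unannotated gene with the next largest peak ratio, Medtr7g111850, had 1.10 CPM in water, 2.70 and 2.68 CPM at NF 4 h, and 0.572 and 0.888 CPM at NF 20 h. It is 1 of 5 unannotated genes with both NF 20 h libraries below water.

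How far the genes came back down was described by the share of the 4 h gain left at 20 h, which is the NF 20 h mean less the water level, divided by the NF 4 h mean less the water level. A share of 0% is a full return to water and a negative share lies below it. The share ran from -79.1% to 53.9% with a median of 15.7%, and was over 25% in 19 genes, between 0 and 25% in 14 and below 0 in 23. All 14 genes under 1 CPM in water had both NF 20 h libraries above water and a median share of 26.2%. Of the 42 genes at 1 CPM or more, 18 had both NF 20 h libraries above water, 16 had both below and 8 had one on each side, and the median share was -1.65%. Both NF 20 h libraries were below water in 28.6% of the group and in 4614 of the 14694 genes at 2 CPM or more (31.4%). The latter share sets no condition on NF 4 h. Of 4801 genes with both NF 4 h libraries above water, 584 (12.2%) had both NF 20 h libraries below it. With both NF 4 h libraries at least 1.5 times water, 16 genes (2.74%) did. Any such gene meets the whole rule, so these are the 16 of the group and their share in it follows from the choice. A gene near 0 in water has little room below it, which limits how negative its share can be. The limit is not equal among the 14 genes, whose water levels reached 0.636 CPM in Medtr8g027265. Its part in their shares was not tested. The rule also limits the share from above, as NF 20 h had to lie at least 1.5-fold under NF 4 h. This upper limit is lower the closer NF 4 h lies to water. The difference between the medians of the 14 and the 42 genes therefore depends on the choice, and nothing is read from it.

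**Figure D4:**
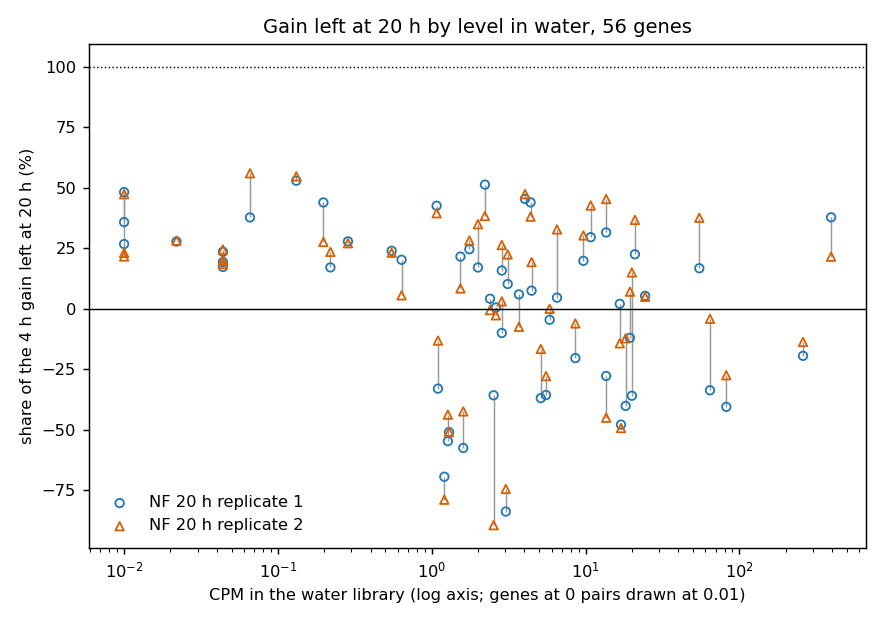
Share of the 4 h gain left at 20 h (%) against the CPM in the water library (log axis, 0 pairs drawn at 0.01), for each of the 56 genes; circles and triangles are NF 20 h replicates 1 and 2, the grey line joins them, and both use the NF 4 h mean. All genes under 1 CPM in water lie above the 0 line, while the others lie on both sides of it, down to a mean of -79.1%. The rule limits the share from above, the more so the closer NF 4 h lies to water.

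In 4 genes the NF 20 h mean was 0.271 of the water level or lower. These were the calcium ATPase Medtr6g016470 and the Nod 19 gene Medtr4g094550 described above, and Medtr5g040940 and Medtr4g082900. Medtr5g040940, a ribonuclease of the T2 family, had 1.21 CPM in water, 3.14 and 2.07 CPM at NF 4 h, and 0.238 and 0.106 CPM at NF 20 h, where the counts were 10 and 5 pairs against 55 in water. Medtr4g082900, a hypothetical protein in the study's legume-specific table, had 3.03 CPM in water, 6.04 and 5.59 CPM at NF 4 h, and 0.691 and 0.951 CPM at NF 20 h. Both NF 20 h libraries lay below water in each of the 4.

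The NF 4 h replicates agreed within 1.5-fold in all but 10 of the 56 genes. NF 4 h replicate 1 was the higher in 42 genes (75%), compared with 46% of the 14694 genes whose lower NF 4 h library was at 2 CPM or more. Examples with a wide gap were the Kunitz gene Medtr6g044810 with a replicate 1 to replicate 2 ratio of 2.21 and the pectin acetylesterase Medtr1g085070 with 2.05, while the amino acid transporter Medtr7g038910 had the lowest ratio, 0.599. Whether something about replicate 1 takes part in the peak was not tested.

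The rule was also applied to 1 replicate number at a time, and the genes it took were read in the other. The 56 genes are among those taken each time. The full rule had already placed them at 1.5-fold or more in both replicates, so they raise the shares below by choice. Applied to the NF libraries of replicate 1 and the water library alone, the rule took 197 genes, and in replicate 2 the NF 4 h library was the higher in 182 of them (92.4%), with a median NF 4 h to NF 20 h ratio of 1.57. Over 14953 genes at 2 CPM or more in NF 4 h replicate 1 these values were 51.5% and 1.01. Applied to replicate 2, the rule took 194 genes, and in replicate 1 the NF 4 h library was the higher in 169 (87.1%) with a median of 1.77, beside 41.3% and 0.967 over 15122 genes. At least 1.5-fold was kept by 109 genes (55.3%, beside 6.21% of all) in the first reading and by 121 (62.4%, beside 4.32%) in the second. These are descriptions over genes of the same libraries, and genes are not independent replicates. Nothing about the 56 genes is read from them.

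**Figure D5:**
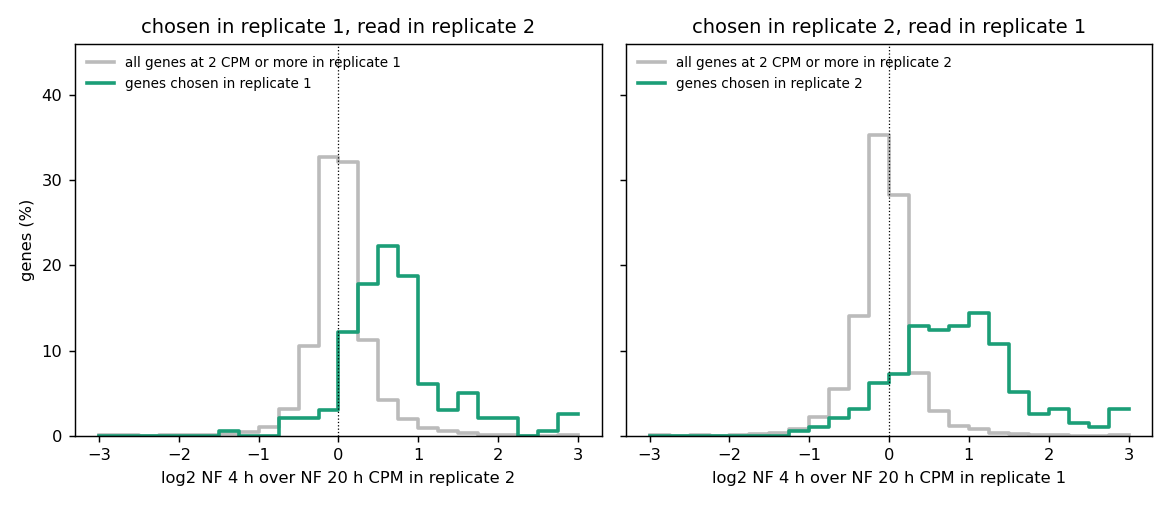
Share of genes (%) by the log2 ratio of NF 4 h to NF 20 h CPM in the replicate that was not used to choose them, in steps of 0.25 with values beyond 3 in the end steps; the green line is the 197 genes chosen in replicate 1 or the 194 chosen in replicate 2 and the grey line all genes at 2 CPM or more in the choosing replicate. The green lines lie to the right of the grey lines, with medians of 1.57 and 1.77 on the linear scale. Both green lines include the 56 genes of the group, which the full rule placed at 1.5-fold or more in both replicates.

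Features that the rule did not use were set beside the 14694 genes at 2 CPM or more. The median transcript length was 1438 bases beside 1726. The study's legume-specific table held 4 of the 56 genes (7.14%) beside 5.81%, and its table of orthologs of Arabidopsis root hair genes held 2 (3.57%), the laccase Medtr7g065980 and the amino acid transporter Medtr7g038910, beside 7.19%. By their identifiers, 8 genes (14.3%) lie on chromosome 6 beside 5.15%, among them both Kunitz genes. With so few genes these shares are given without a test, and no 2 of the 56 genes are next to each other in the listing.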

How the data were processed

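Raw read pair counts per transcript, deposited by the authors as whole numbers with transcript lengths, were used for 5 of 6 samples. Per the file headers and the study's methods, the authors trimmed the reads, mapped them onto the Mt4.0v1 transcript set (Bowtie 2, local alignment) and kept pairs on 1 gene, discarding multiply matching reads, which can lower genes that share sequence. The labels and methods name different TruSeq kits, and strand use is not stated. NF dose and plants per sample are from the methods. CPM and FPKM were computed here from library totals and transcript lengths.

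All genes were fitted together with edgeR 4.0.16 (R 4.3.3), using library-size scaling, filterByExpr by treatment, quasi-likelihood tests and a Benjamini-Hochberg adjusted p under 0.05. As water has 1 library, only the NF replicates contribute to the residual spread (2 degrees of freedom), and p-values measure the spread between pooled samples. The fit was also run on simulated counts with the same spread for all genes, which does not check the calls made here. Alternatives included TMM factors, DESeq2 1.42.0 and omitted libraries. Counting intervals are exact (95%) and cover counting error only.

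The genes and gene lists were chosen with earlier results of these data known. Genes named are the 12 with the largest peak ratio, the 6 with the highest NF 4 h CPM, up to 3 per list, 3 just inside and 3 just outside the 1.5-fold limit, those with primers, and the 4 lowest at NF 20 h relative to water. All other genes named were picked after their values were seen. Promoter motifs were not analysed here, as the reference table shared no identifier with the count files.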

Additional observations from a re-analysis of the deposited data

Results flagged for a closer look

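In the group, 16 of the 56 genes had both NF 4 h libraries above the water library and both NF 20 h libraries below it (28.6%). Over all genes at 2 CPM or more in the lower NF 4 h library, both NF 20 h libraries were below water in 31.4%, whatever their NF 4 h side. Of the 4801 of them with both NF 4 h libraries above water, 584 (12.2%) had both NF 20 h libraries below it. With both NF 4 h libraries at least 1.5 times water the share was 2.74%. Any such gene meets the whole rule, so these are the same 16 genes. The ratio of the NF 20 h mean to water was lowest in the ribonuclease Medtr5g040940 (0.143), the calcium ATPase Medtr6g016470 (0.147), the Nod 19 gene Medtr4g094550 (0.257) and the hypothetical protein Medtr4g082900 (0.271). Whether the opposite sides of water differ beyond the spread of the control treatment was not tested, since water has 1 library, and the choice of the genes fixed the NF 4 h side.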

How the results depend on the processing

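The group held 56 genes as chosen, 71 with a limit of 1 CPM, 38 with 5 CPM, 61 with TMM-scaled CPM and 57 with single reads in place of pairs (tried after seeing the data), which shared 53. With 2-fold limits it held 13, and with 1 replicate number left out 194 to 197. Genes called higher at NF 4 h than water by edgeR were 20, but 8 when every library needed 10 counts (44 genes tested), 37 with DESeq2 (2.05% of all genes) and 0 at an adjusted p under 0.01 (53 at an unadjusted p under 0.05). Counts from fits without 1 NF library, which leave 1 library in that treatment, also moved and are not given. Genes called lower at NF 20 h than at NF 4 h were 2, but 27 without the filter (0.386% of all), 0 with 10 counts in every library (44 unadjusted), 47 with DESeq2 (1.85%) and 0 at 0.01 (56 unadjusted). Genes called higher at NF 20 h than water were 7, but 11 with TMM or DESeq2 size factors, 16 without the filter (1.47%), 2 with 10 counts, 20 with DESeq2 (2.6%) and 0 at 0.01 (23 unadjusted). The share of all genes called was computed only for the main fit, the fit without the filter, DESeq2 and the replicate block below. The cause of these shifts was not tested. The median share of the gain left at 20 h was between 11% and 21.7% in the alternatives run.

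A replicate block, which pairs NF 4 h and NF 20 h by number only since no label ties a number to a batch, leaves 1 residual degree of freedom. With it, 45 genes were called higher at NF 4 h (4.29% of all), 55 lower at NF 20 h than at NF 4 h (4.16%) and 22 higher at NF 20 h (6.74%). The replicate 2 less replicate 1 differences of both treatments correlated across 22091 genes with r = 0.592, as a description.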
